A study of Mus musculus with 4 samples.

Results

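The 9 genes Lmo2, Rflna, Hopx, Evx1, Evx1os, Lmcd1, Ppp1r14c, Phlda1 and Cited2 were followed in sorted cells of the embryonic mouse cerebellum with and without the Engrailed genes En1 and En2. They are 9 of the 32285 genes in each of the 4 matrices, and all 9 were found by symbol in every library. They were listed because their counts differed between mutant and control cells of the cerebellar nuclei lineage in these same libraries, so their levels and co-detection in that lineage are a description and carry no test. The cells had been dissociated from cerebella of embryos at E14.5, with animals pooled for each library, sorted for the red reporter tdTomato (tdT) and profiled by 10x Genomics droplet sequencing of 3′ transcript ends. The 2 control libraries carry the Cre driver Atoh1-Cre/+ and the reporter R26LSL-tdT/+. The 2 conditional knockout (CKO) libraries carry both of these too and in addition En1lox/lox and En2lox/lox, floxed alleles that Cre deletes. The reporter is switched on in cells that have expressed Atoh1 and in their descendants. The control genotype lists no floxed Engrailed allele. Because animals were pooled, any p-value here measures the spread between libraries.

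Atoh1 is a transcription factor of the rhombic lip, the germinal edge from which the excitatory neurons of the cerebellum arise. The excitatory cerebellar nuclei neurons, which carry the output of the cerebellum, leave the rhombic lip first, and the granule cell progenitors follow. Engrailed proteins are homeodomain repressors that pattern the midbrain and cerebellum and act in several of their cell types. Among the 9 genes, Lmo2 encodes a LIM-domain adaptor that joins LDB1 to basic helix-loop-helix factors, Hopx a small homeodomain protein without DNA binding of its own, and Evx1 a homeodomain repressor known from commissural interneurons of the spinal cord. Evx1os is a long noncoding RNA from the opposite strand at the Evx1 locus. Cited2 encodes a partner of the coactivators CBP and p300, and Lmcd1 a LIM-domain co-regulator. Rflna encodes refilin A, which binds filamin at the actin cytoskeleton, Ppp1r14c an inhibitor of protein phosphatase 1, and Phlda1 a pleckstrin homology-like protein induced by growth and stress signals.

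The cells analysed had 500 or more genes, 1000 or more unique molecular identifiers (UMIs, counted transcript molecules) and no more than 10% mitochondrial UMIs. Of the 12546 kept cells, 3870 had more UMIs of Meis2, a homeodomain gene of the nuclei neurons, than of Pax6, a marker of the granule lineage, and are called Meis2-higher. There were 6948 Pax6-higher cells and 1728 cells with equal counts, zeros included. Meis2-higher cells numbered 603 in control 1, 2322 in control 2, 573 in CKO 1 and 372 in CKO 2. Library totals ran from 14998150 to 33709450 UMIs. Any pair of libraries shared 7 to 17 of all their cell barcodes, kept or not. Depth, blood RNA and sex set libraries apart. Median depth in Pax6-higher cells was 3238 and 2339 UMIs in the controls against 13722.5 and 9818.5 in the CKO libraries, whereas in Meis2-higher cells it was 2617, 2171.5, 3110 and 2248. Control 2 carried haemoglobin RNA, with Hbb-bs at 1030 CPM (counts scaled to 1000000 UMIs of the tested genes of the class, after edgeR's TMM scaling) in Meis2-higher cells against 8.26, 1.41 and 0.561 in control 1, CKO 1 and CKO 2. Xist, expressed in female cells, was at 0.972 CPM in control 1 and at 641 to 2253 in the other libraries, so sex was not balanced between libraries. En2 in Meis2-higher cells was at 246 and 193 CPM in the controls and at 48.7 and 43.8 in the CKO libraries, a log2 fold change of -2.24 (SE 0.23, edgeR adjusted p = 0.0177). En1 was at 537, 475, 360 and 742 (log2 fold change 0.12, edgeR adjusted p = 0.898), and 3′ tags need not lie in the deleted part of a gene.

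The 9 genes lie on 4 chromosomes (GRCm38, GENCODE M21). Lmo2 is at chr2:103957986-103981878 on the plus strand. Hopx (chr5:77086988-77115121, minus strand) and Rflna (chr5:125003221-125012547, plus) share a chromosome but not a neighbourhood. Lmcd1 is at chr6:112273758-112330425 (plus), Ppp1r14c at chr10:3366057-3464975 (plus), Cited2 at chr10:17723218-17725674 (plus) and Phlda1 at chr10:111506286-111508645 (plus). Evx1 (chr6:52313498-52318378, plus) and Evx1os (chr6:52308389-52314832, minus) run towards opposite sides and overlap over 1335 bases. The overlap holds the starts of both genes, and their annotated 3′ ends lie outside it. The sources used here do not state whether reads were counted by strand, so it is not known whether UMIs of Evx1 and Evx1os are fully told apart. RefSeq promoter windows on GRCm38.p6, from 250 bases before to 50 bases after a start, matched 6 of the 9 genes with 7 windows. Those of the Evx1 locus, of Lmcd1, which was detected with Evx1 more often than independence gives in every library, and of Ppp1r14c, which was not, are printed 5′ to 3′ on each gene's own strand, with capitals for TAATTA, the core of many homeodomain sites, and for the E-box CAGCTG, both palindromes.
Evx1, chr6:52313248-52313547, plus strand: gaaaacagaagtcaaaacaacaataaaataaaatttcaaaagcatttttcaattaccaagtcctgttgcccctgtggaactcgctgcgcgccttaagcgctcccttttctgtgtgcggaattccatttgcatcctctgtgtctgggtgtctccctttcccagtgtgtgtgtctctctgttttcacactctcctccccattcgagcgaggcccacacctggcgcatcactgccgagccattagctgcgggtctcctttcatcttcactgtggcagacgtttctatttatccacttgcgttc
Evx1os, chr6:52314783-52315082, minus strand: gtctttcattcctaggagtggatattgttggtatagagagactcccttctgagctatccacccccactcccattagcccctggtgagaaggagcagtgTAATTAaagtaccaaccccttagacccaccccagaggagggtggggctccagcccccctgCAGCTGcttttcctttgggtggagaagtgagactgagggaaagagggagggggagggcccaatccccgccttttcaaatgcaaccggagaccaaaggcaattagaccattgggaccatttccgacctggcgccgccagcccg
Lmcd1, chr6:112273508-112273807, plus strand: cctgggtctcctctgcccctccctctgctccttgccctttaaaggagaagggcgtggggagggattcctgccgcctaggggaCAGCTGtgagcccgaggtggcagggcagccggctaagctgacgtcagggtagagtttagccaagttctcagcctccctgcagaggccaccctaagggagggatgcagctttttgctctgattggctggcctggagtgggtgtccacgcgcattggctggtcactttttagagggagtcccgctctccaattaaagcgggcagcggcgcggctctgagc
Ppp1r14c, chr10:3365900-3366199, plus strand: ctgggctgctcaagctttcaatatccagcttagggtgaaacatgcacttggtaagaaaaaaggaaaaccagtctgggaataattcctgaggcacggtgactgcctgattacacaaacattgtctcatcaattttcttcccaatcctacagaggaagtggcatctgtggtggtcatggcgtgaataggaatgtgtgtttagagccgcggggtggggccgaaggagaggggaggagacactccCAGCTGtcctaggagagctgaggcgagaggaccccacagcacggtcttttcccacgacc
Over both strands, CAGCTG was present in 5 of the 7 windows, those of Cited2, Evx1os, Lmcd1 and Ppp1r14c and 1 of the 2 windows of Hopx, and in 16.3% of all 32851 promoter windows of the same length. TAATTA was present in 1 window, that of Evx1os, against 5.29% of all. CAGATG was present in 1 window, that of Ppp1r14c, against 17.2% of all. The GATA-factor motif AGATAA, found in 11.2% of all windows, was in none of the 7. Nor was the MEIS-factor motif TGACAG, found in 19.2% of all. These are matches of letters and not measured binding sites.

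In Meis2-higher cells CKO 1 and CKO 2 each had more RNA of every 1 of the 9 genes, relative to the scaled total of UMIs, than either control. Such a position of both CKO libraries above both controls was held by 22.0% of the 11804 genes tested in these cells, and since the 9 genes were chosen from this contrast nothing is read from their count. The median of their log2 fold changes was 1.59, and that of all genes tested was -0.01. Because of that choice, the calls and adjusted p of the 9 genes in these cells are given as values and are no test of them. Of the 9, Lmo2, Rflna, Hopx, Ppp1r14c and Phlda1 were among the 25 genes called at an adjusted p under 0.05 by edgeR's quasi-likelihood test (0.212% of genes called). That number of called genes was 257 without control 1, 94 without control 2, 44 without CKO 1 and 751 without CKO 2. Levels are these TMM-scaled CPM of a class of cells in a library, which were 0.955 to 1.06 times the unscaled CPM over all UMIs of the class. Without that scaling all 9 genes kept the same position of the CKO libraries above both controls. Fold changes are edgeR's on the log2 scale, CKO over control, with their standard errors (SE). None of the 5 genes passed the threshold in cells with at most 5% mitochondrial UMIs (edgeR adjusted p from 0.0892 for Ppp1r14c to 0.147 for Hopx). Hopx (0.0787) and Phlda1 (0.0834) did not pass without doublets, Lmo2 (0.0639) and Hopx (0.0955) did not in cells of at least 4000 UMIs, and Lmo2 (0.112) did not in cells thinned to 2000 UMIs, all edgeR adjusted p.

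**Figure D1:**
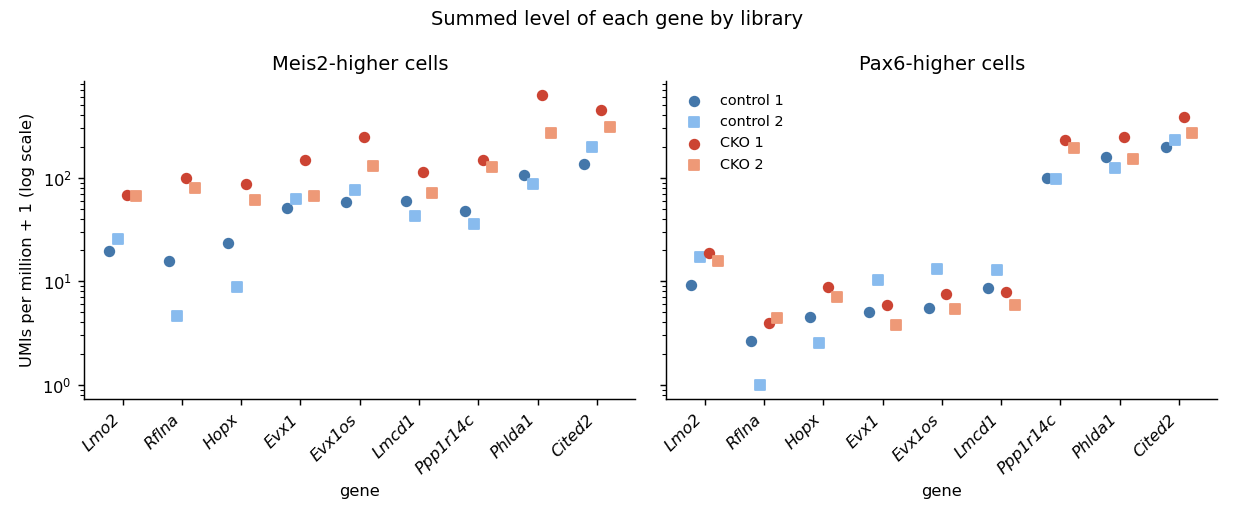
Summed level of each gene in CPM plus 1 (log axis), 1 point per library, in Meis2-higher cells (left) and Pax6-higher cells (right). Red and orange CKO points lie above both blue control points for every gene on the left, and for Rflna, Hopx, Ppp1r14c and Cited2 on the right.

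Among the transcriptional adaptors, Lmo2 was at 18.5 and 24.7 in controls 1 and 2 and at 67.2 and 66.2 in CKO 1 and 2. The CKO libraries nearly coincided and the log2 fold change was 1.59 (SE 0.23). Hopx was at 22.4 and 7.84 in the controls and at 85.8 and 60.0 in the CKO libraries, a log2 fold change of 2.46 (SE 0.40). The controls differed from each other by a factor as large as that between the highest control and the lowest CKO library, and the log2 fold change was 3.24 without control 1 and 1.72 without control 2. Cited2 was at 134 and 198 in the controls and at 449 and 307 in the CKO libraries (log2 fold change 1.18, SE 0.27). Lmcd1 was at 59.3 and 41.9 in the controls and at 113 and 69.6 in the CKO libraries (log2 fold change 0.89, SE 0.27), so that CKO 2 lay close above control 1.

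At the Evx1 locus, Evx1 was at 50.05 and 61.3 in the controls and at 147 and 65.6 in the CKO libraries. CKO 2 was only just above control 2, and the log2 fold change of 0.95 (SE 0.32) became 0.22 without CKO 1. Evx1os was at 57.8 and 74.5 in the controls and at 248 and 128 in the CKO libraries, a log2 fold change of 1.51 (SE 0.30). Both CKO libraries were clear of the controls for the antisense RNA, whereas for Evx1 itself the higher mean rested on CKO 1.

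Of the genes of the cytoskeleton and of signalling, Rflna had the largest fold change of the 9. It was at 14.6 and 3.58 in the controls, from 30 and 21 UMIs, and at 99.0 and 78.0 in the CKO libraries, from 421 and 139 UMIs. Its log2 fold change was 3.58 (SE 0.46), and it was 4.64 without control 1 and 2.61 without control 2. Ppp1r14c was at 47.1 and 35.1 in the controls and at 148 and 126 in the CKO libraries (log2 fold change 1.76, SE 0.22). Phlda1 was at 106 and 86.1 in the controls and at 623 and 269 in the CKO libraries. Both CKO libraries were far above the controls but differed from each other, and the log2 fold change of 2.22 (SE 0.36) became 1.49 without CKO 1.

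To compare single cells at equal depth, each Meis2-higher cell with at least 2000 UMIs was thinned to 2000 UMIs by random draw. This kept 423 and 1322 control cells and 430 and 222 CKO cells, and left out 180 and 1000 control cells and 143 and 150 CKO cells. Phlda1 was detected, with at least 1 UMI, in 13.9% and 12.6% of control cells and in 47.9% and 30.6% of CKO cells. Rflna was detected in 2.13% and 0.908% of control cells and in 12.6% and 9.46% of CKO cells. Hopx (1.65% and 1.66% against 10.5% and 6.31%) and Lmo2 (2.84% and 3.93% against 8.84% and 10.8%) were likewise rare in the controls. For Ppp1r14c the shares were 8.75% and 4.99% in the controls and 15.8% in each CKO library. Evx1os was detected in 9.69% and 10.9% of control cells and in 26.3% and 18.5% of CKO cells. Evx1 overlapped between groups, at 9.22% and 9.98% in the controls, 19.8% in CKO 1 and 8.11% in CKO 2. Lmcd1 was barely apart, at 9.22% and 5.98% in the controls against 13.0% and 9.46% in the CKO libraries. Cited2 was detected in 21.04% and 27.7% of control cells and in 45.8% and 33.3% of CKO cells.

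Co-detection followed the single genes. At 2000 UMIs, 18.4% of control 1 cells (95% Wilson interval 15.03 to 22.4%) and 18.5% of control 2 cells (16.5 to 20.6%) held 2 or more of the 9 genes. In CKO 1 the share was 57.0% (52.3 to 61.6%) and in CKO 2 it was 40.1% (33.9 to 46.7%). The CKO mean was 48.5% ± 11.9 (SD, n = 2) and the control mean 18.4% ± 0.0121 (SD, n = 2), 30.1 percentage points apart. Wilson intervals cover counting error only. Cells with 3 or more of the genes made up 3.78% and 5.07% of control cells and 35.6% and 18.5% of CKO cells. The share with none was 44.9% and 46.6% in the controls against 15.6% and 29.3% in the CKO libraries. Thus the CKO libraries had fewer cells with none of the genes as well as more cells with several. Without Cited2 and Phlda1, the most often detected of the 9 genes in CKO cells, cells with 2 or more of the remaining 7 made up 6.86% and 6.73% of control cells and 29.5% and 20.3% of CKO cells. In cells of at least 4000 UMIs thinned to 4000, the share with 2 or more of the 9 was 52.8% and 43.6% in 106 and 303 control cells and 93.6% and 75.3% in 233 and 93 CKO cells. The most genes found in 1 cell at that depth were 5 in each control, 7 in CKO 1 and 9 in CKO 2.

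**Figure D2:**
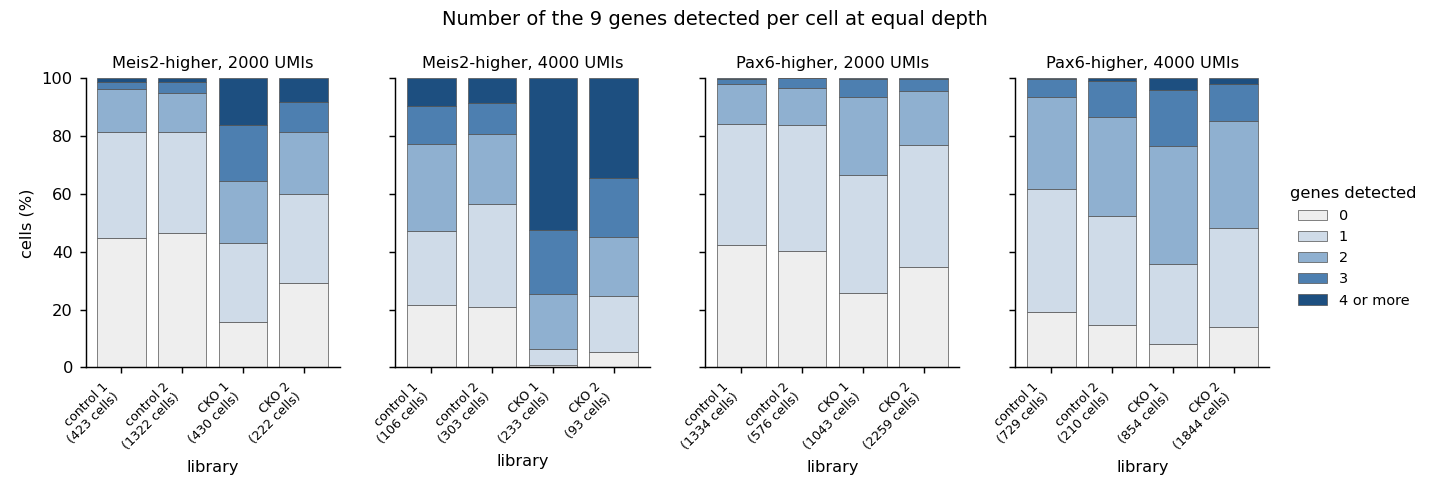
Share of cells (%) by the number of the 9 genes detected, 1 bar per library, in Meis2-higher and Pax6-higher cells thinned to 2000 or 4000 UMIs. In Meis2-higher cells at 2000 UMIs the palest segment, cells with none, is 44.9% and 46.6% in the controls against 15.6% and 29.3% in the CKO libraries.

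Depth before thinning moved with these counts in the CKO libraries. In CKO 1, Meis2-higher cells with 4 or more of the genes at 2000 UMIs had a median of 13703.5 UMIs before thinning, and cells with none had 2938. In CKO 2 the medians were 11018.5 and 2747, whereas in the controls they were 2471 and 3091 in control 1 and 3080 and 2881.5 in control 2. The median mitochondrial share was 3.25% in CKO 1 cells with 4 or more of the genes and 7.06% in cells with none. In control 2 the corresponding values were 4.74% and 6.59%. In the CKO libraries the cells with several of the genes were thus deeper than those with none. The control 1 value for 4 or more genes rests on 5 cells. With 3 or more of the genes the medians were 3683.5 UMIs in control 1, from 16 cells, and 2936 in control 2. In CKO 1 and CKO 2 they were 10967 and 10192. By these medians such control cells were deeper than those with none as well, but by less than in the CKO libraries.

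Comparison within bands of like original depth, chosen after these values had been seen, narrowed the difference. Among cells from 2000 to under 4000 UMIs thinned to 2000, where library medians were 2524 to 2787 UMIs, 15.1% and 17.1% of control cells and 36.5% and 26.4% of CKO cells held 2 or more of the 9 genes. The groups were still separate, but 15.3 percentage points apart in place of 30.1. Among cells from 4000 to under 8000 UMIs thinned to 4000, control shares were 47.6% and 45.1%, and those of the CKO libraries 84.9% in CKO 1 and 66.7% in CKO 2, the last from 24 cells. Single genes differed in how they behaved in the lower band. Rflna (1.58% and 0.589% against 7.61% and 6.20%) and Phlda1 (12.3% and 13.0% against 33.0% and 28.7%) stayed well apart. Ppp1r14c (9.46% and 5.005% against 12.7% and 11.6%), Evx1os (12.3% and 10.9% against 21.8% and 14.7%) and Hopx (0.631% and 1.47% against 4.06% and 3.10%, from 2 to 15 cells a library) were apart by less. Lmo2 was apart by little in CKO 2, at 3.79% and 3.63% against 9.14% and 4.65%. Evx1 overlapped, at 9.78% and 9.22% against 19.3% and 9.30%. Lmcd1 overlapped as well, at 5.36% and 5.50% in the controls against 3.55% and 5.43% in the CKO libraries. Cited2 overlapped too, at 17.7% and 26.6% in the controls against 28.4% and 20.9% in the CKO libraries. With at most 5% mitochondrial UMIs, a limit also chosen afterwards, the shares with 2 or more genes at 2000 UMIs were 26.3% and 24.2% in the controls against 69.9% and 45.8% in the CKO libraries. The part of depth and RNA quality in the levels of single genes was not tested further.

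**Figure D3:**
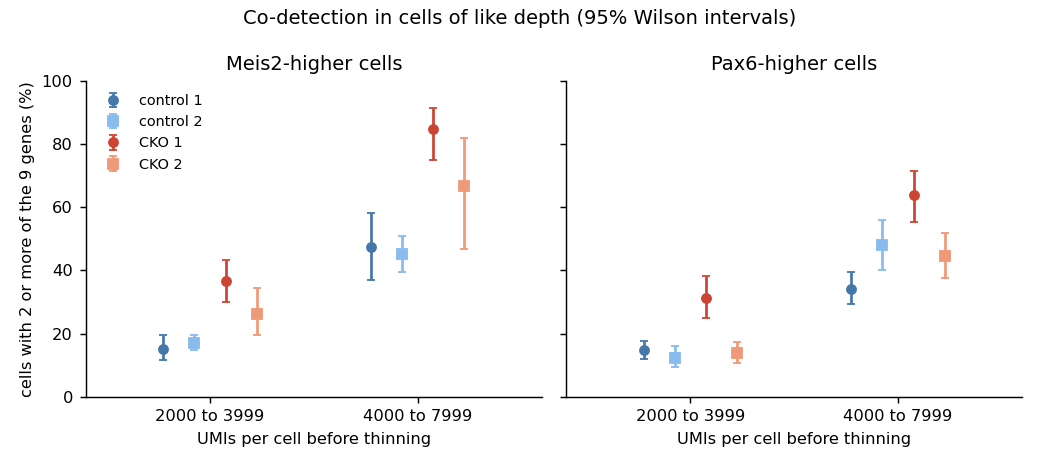
Share of cells (%) with 2 or more of the 9 genes, within bands of UMIs per cell before thinning, 1 point per library with its 95% Wilson interval. In Meis2-higher cells (left) both CKO points lie above both control points in both bands, and in Pax6-higher cells (right) the CKO 2 point lies among the controls.

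Which of the genes were found together was examined for the 36 pairs in Meis2-higher cells at 2000 UMIs, by the odds ratio in each library (1 where detection is independent; 0.5 was added to each cell of the count table). In all 4 libraries 11 pairs were co-detected above the number independence gives, and no pair was so in none. These counts are descriptions, because the cells of a library differ in maturity and in depth before thinning, whose part in the pairs was not tested. Evx1 and Evx1os had odds ratios of 5.48 and 3.26 in the controls against 2.25 and 5.31 in the CKO libraries, and 88 cells held both against 43.8 given by independence. Since they overlap at their starts on opposite strands, this pair may share reads, which was not tested. Evx1 and Lmcd1, on the same chromosome but far apart, had odds ratios of 2.04 and 3.21 in the controls against 3.84 and 4.65 in the CKO libraries (54 cells against 24.3). Evx1os and Lmcd1 were alike, with 57 cells against 31.0.

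Rflna joined both Evx1os and Phlda1. For Rflna and Phlda1 the odds ratios were 2.07 and 3.74 in the controls against 8.64 and 4.19 in the CKO libraries, with 66 cells holding both against 35.1. For Rflna and Evx1os they were 5.27, 1.95, 4.38 and 4.94, with 45 cells against 20.2. Lmcd1 was found above independence in all 4 libraries with 6 of the other genes: Rflna, Hopx, Evx1, Evx1os, Phlda1 and Cited2. None of the 8 pairs of Ppp1r14c exceeded independence in every library. It was found with Rflna in 8 cells against 13.2, with Lmcd1 in 16 against 19.5 and with Evx1os in 28 against 35.1. It was above independence with Lmo2 (18 against 13.4), Hopx (15 against 11.03), Phlda1 (65 against 56.7) and Cited2 (74 against 68.9). At 4000 UMIs the pairs with Lmcd1 (50 against 43.3) and Phlda1 (100 against 92.6) were above independence. The pair with Hopx was at it (29 against 28.95), and that with Lmo2 was below it (21 against 25.2). The pairs with Cited2 (108 against 112.5) and Evx1os (45 against 60.9) were below it in all 4 libraries. Lmo2 also had no pair above independence in every library. In CKO 1, where Lmo2 was detected in 38 cells, its odds ratio with Lmcd1 was 0.243 and with Phlda1 0.481, whereas in CKO 2 they were 1.59 and 1.44. Many pairs involving Lmo2, Hopx or Rflna rest on few cells in the controls, where those genes were rare.

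**Figure D4:**
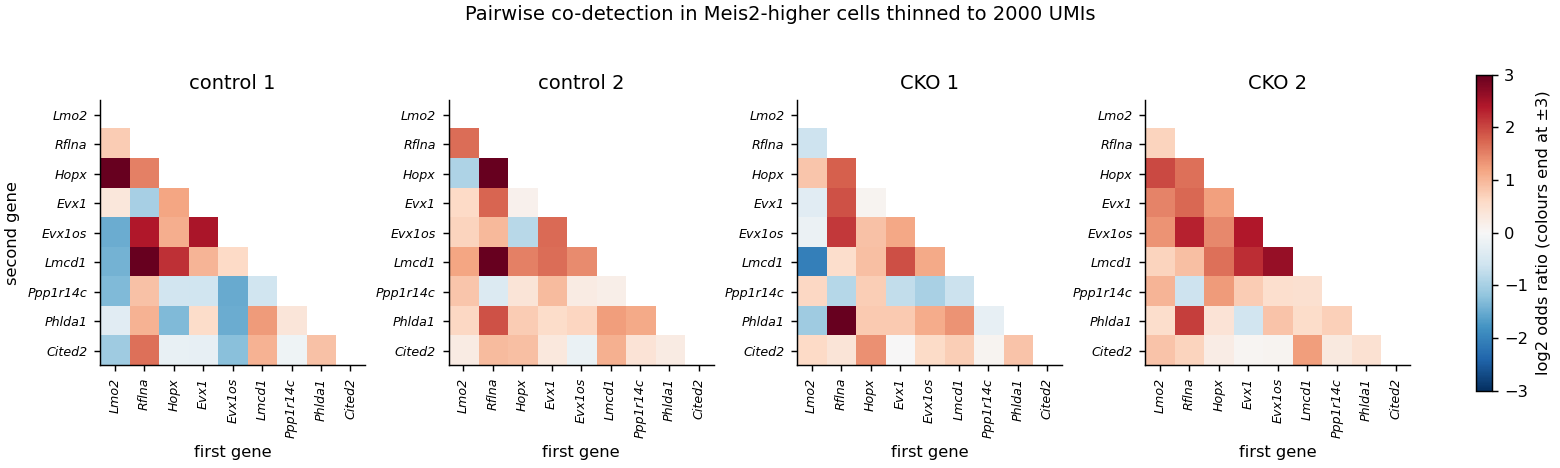
Log2 odds ratio of detecting both genes of a pair in Meis2-higher cells thinned to 2000 UMIs, 1 panel per library, red above and blue below independence. The Evx1, Evx1os and Lmcd1 pairs are red in every panel, and the Ppp1r14c row is blue for Rflna, Evx1, Evx1os and Lmcd1 in CKO 1.

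The name nascent neurons was checked on marker lists within Meis2-higher cells at 2000 UMIs, by comparing cells with 2 or more of the 9 genes with cells that had none. The summed level of 15 genes of newborn neurons, among them Nhlh1, Insm1 and Robo3, was higher in cells with 2 or more in all 4 libraries. It was 3282 against 2374 CPM in control 1, 3566 against 2682 in control 2, 5018 against 3478 in CKO 1 and 5124 against 3492 in CKO 2. The sum of 13 genes of maturing neurons, such as Snap25, Gria2 and Grin2b, was lower in all 4, at 5519 against 6929, 5785 against 6442, 5371 against 6963 and 5545 against 7969. Co-detecting cells of either genotype were thus on the younger side of the Meis2-higher class by these lists. The excitatory nuclei list, with 12 of its 13 genes detected in the co-detecting cells of each library, was at 4545 against 4484 CPM in control 1 but lower in co-detecting cells in the others, at 4662 against 4920, 4667 against 5261 and 4483 against 5308. Marker sums are unscaled CPM. The granule lineage list, which shares Barhl1, Neurod1 and Cntn2 with the list of newborn neurons, was also higher in co-detecting cells, at 2154 against 1663, 2088 against 1690, 3020 against 2455 and 3612 against 2600. By these lists the co-detecting cells expressed genes of newborn excitatory neurons, and the lists do not keep young nuclei neurons strictly apart from young granule cells.

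Progenitor and cycling markers did not move in 1 direction. The rhombic lip progenitor list was at 186 against 145 in control 1, 61.5 against 74.7 in control 2, 218 against 74.6 in CKO 1 and 157 against 100 in CKO 2. The cycling list was at 141 against 366 and 145 against 248 in the controls and at 343 against 321 and 326 against 231 in the CKO libraries. Cells with an Atoh1 UMI made up 9.69% and 6.13% of the control cells and 16.0% and 12.2% of the CKO cells of the class. Among those cells, 31.7% and 12.3% held 2 or more of the 9 genes in the controls against 69.6% and 44.4% in the CKO libraries, from 41, 81, 69 and 27 cells. Among cells without one, the shares were 17.0% and 18.9% against 54.6% and 39.5%. Both CKO libraries thus lay above both controls on either side of Atoh1 detection. Among cells with an Atoh1 UMI the Wilson intervals of control 1 (19.6 to 47.0%) and CKO 2 (27.6 to 62.7%) overlapped. The part of the larger Atoh1-positive fraction in the summed levels was not tested.

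Markers of other cell types were low in the co-detecting cells. The 5 mesenchymal genes summed to 0 CPM in 3 libraries and to 2.04 in CKO 1. The 7 endothelial genes summed to 0 in control 1, 4.10 in control 2, 10.2 in CKO 1 and 5.62 in CKO 2, and the 6 macrophage genes to 0, 4.10, 2.04 and 0. The 6 erythroid genes summed to 44.9, 268, 12.2 and 11.2. The 8 genes of GABAergic neurons summed to 122, 69.7, 46.9 and 95.5, with 3 to 5 of them detected. In cells with none of the 9 genes they summed to 108, 79.5, 14.9 and 46.2, so only in control 2 were co-detecting cells the lower ones. The 5 genes of radial glia and astroglia summed to 76.9, 26.6, 69.4 and 56.2 in co-detecting cells. In cells with none they summed to 197, 34.1, 52.2 and 92.3. Of the cells with 2 or more of the 9 genes, 2.56%, 2.05%, 1.63% and 5.62% had a doublet score in the range removed as an alternative.

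**Figure D5:**
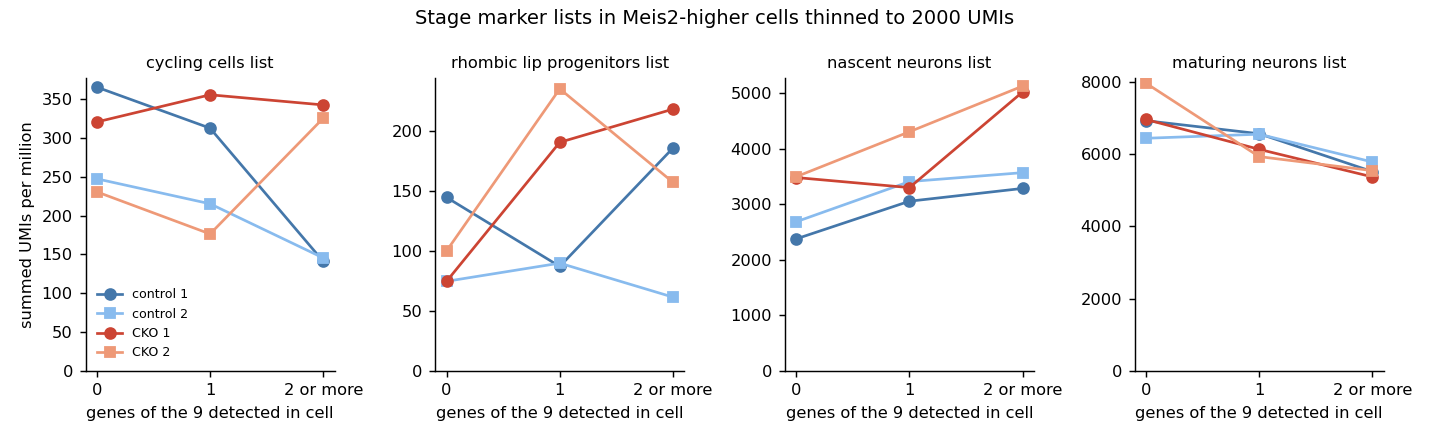
Summed CPM of 4 marker lists in Meis2-higher cells thinned to 2000 UMIs, by the number of the 9 genes detected in the cell, 1 line per library. From none to 2 or more genes the list of nascent neurons goes up and that of maturing neurons goes down in every library, and the cycling list goes down in the controls only.

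A ranking of 5524 other genes by their difference between co-detecting cells and cells with none, taken as the smallest difference over the 4 libraries, named the genes with the most similar pattern. Differences are log2 ratios with 50 CPM added to both sides. Highest was Cdhr1, a cadherin-related gene, with ratios of 0.79 to 1.15 over the 4 libraries. Nhlh2, a helix-loop-helix factor of newborn neurons, followed with 0.62 to 0.77, and then Nkd1, an antagonist of Wnt signalling, with 0.59 to 0.96. The other 9 of the first 12 were Eci2, Rpl21, Scrt2, Eif3f, Mrpl34, Nedd8, Pcp4, Dgcr6 and Rps28, with smallest ratios of 0.50 to 0.59. Among them Scrt2, a zinc-finger repressor of newborn neurons, had ratios of 0.56 to 1.06. Among the lowest were Pcdh9, Chl1, Snhg11, Negr1 and Grin2b, and these lay below -0.54 in every library. Grin2b encodes a glutamate receptor subunit of maturing neurons. A ratio above 0 in all 4 libraries was found for 811 of the ranked genes and below 0 in all 4 for 863.

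Pax6-higher cells, mostly of the granule lineage by that marker, were not the cells whose difference the genes were listed for. They came from the same 4 libraries and shared their differences in depth and sex, and earlier results of these data were known. The comparison in Pax6-higher cells is thus not an independent one. None of the 9 genes passed edgeR's quasi-likelihood test there, while 0.0574% of the 13931 genes tested did. An unadjusted p under 0.05 was reached by 4 of the 9 and by 9.82% of all genes, and DESeq2 called 1, Ppp1r14c, and 0.397% of all genes it tested. The median log2 fold change of the 9 was 0.49, against -0.01 over all genes. Both CKO libraries lay above both controls for 4 of the 9, where 22.9% of all genes did, and below both for 1, where 23.5% of all genes did. Depth differed most between groups in these cells, as given above.

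Ppp1r14c had the smallest p of the 9 in Pax6-higher cells, though not the largest fold change. It was at 98.3 and 96.3 CPM in the controls and at 233 and 191 in the CKO libraries, a log2 fold change of 1.12 (SE 0.22, edgeR adjusted p = 0.145, DESeq2 adjusted p = 0.000923). At 2000 UMIs it was detected in 16.0% and 17.4% of control cells and in 29.1% and 27.5% of CKO cells. In cells from 2000 to under 4000 UMIs thinned to 2000 it was in 15.4% and 14.48% against 23.8% and 21.2%, so the groups did not overlap at like depth either. Cited2, at 197 and 229 in the controls against 389 and 268 in the CKO libraries, had a log2 fold change of 0.63 (SE 0.27, edgeR adjusted p = 0.495). Phlda1 overlapped between groups, at 156 and 125 against 245 and 152 (log2 fold change 0.49, SE 0.27, edgeR adjusted p = 0.543).

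The other 6 genes were at lower levels in Pax6-higher than in Meis2-higher cells of the same library. Rflna was at 1.64 and 0 CPM in the controls and at 2.93 and 3.43 in the CKO libraries (log2 fold change 1.47, SE 0.63, edgeR adjusted p = 0.499), and at 2000 UMIs it was detected in at most 0.575% of the cells of any library. In control 2, 0 of the 576 cells held it, for which a count of 0 allows up to 0.521%. Hopx was at 3.53 and 1.51 against 7.74 and 6.004 (log2 fold change 1.27, SE 0.40, edgeR adjusted p = 0.372). Lmo2 was at 8.28 and 16.4 against 17.8 and 14.6, with overlapping groups (edgeR adjusted p = 0.592), and at 2000 UMIs it was in 1.27% and 3.47% against 3.07% and 3.14% of cells. Evx1 (4.02 and 9.39 against 4.88 and 2.79), Evx1os (4.51 and 12.1 against 6.50 and 4.45) and Lmcd1 (7.54 and 11.8 against 6.89 and 4.84) had negative log2 fold changes of -0.70, -0.48 and -0.68, with edgeR adjusted p of 0.592, 0.709 and 0.510.

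Co-detection in Pax6-higher cells came mainly from Ppp1r14c, Phlda1 and Cited2. At 2000 UMIs, 15.7% and 16.0% of control cells and 33.6% and 22.9% of CKO cells held 2 or more of the 9, a difference of 12.4 percentage points. The exact two-sided permutation test gave p = 0.333, the smallest that 2 libraries against 2 allow. Within the band from 2000 to under 4000 UMIs the shares were 14.7% and 12.3% against 31.2% and 13.7%, so that CKO 2 lay between the controls (exact permutation p = 0.667). Without Cited2 and Phlda1, cells with 2 or more of the remaining genes were at most 2.40% of any library. Only 15 to 21 of the 36 pairs had an expected number of 1 cell or more in a library, so the pairs of the rarer genes could not be judged. Ppp1r14c and Phlda1 were found together in 291 cells, where independence gives 295.5. Ppp1r14c and Cited2 shared 516 cells against 471, and Phlda1 and Cited2 shared 478 against 460.2. At 4000 UMIs Ppp1r14c and Cited2 exceeded independence in all 4 libraries, with odds ratios of 1.47, 1.88, 1.37 and 1.70 (1027 cells against 934).

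Among genes known to work with the 9, Nhlh2 alone was called, and by DESeq2 only. Of 30 tested partner and family genes in Meis2-higher cells, 0 were called by edgeR, 10 had an unadjusted p under 0.05, where 14.7% of all genes did, and DESeq2 called 1, Nhlh2, against 0.918% of all genes it tested. Their median log2 fold change was -0.03, with 14 above and 16 below 0. Nhlh2, a helix-loop-helix partner of LIM-only proteins, was at 155 and 160 CPM in the controls and at 373 and 351 in the CKO libraries (log2 fold change 1.20, SE 0.21, edgeR adjusted p = 0.0649). Among 10 tested genes of the LMO list, Tcf4, a dimer partner of neuronal helix-loop-helix factors, was highest in level, at 1296 and 1379 against 1028 and 1610 (edgeR adjusted p = 0.982). Of the 5 genes of the EVX list, 0 were called, 2 had an unadjusted p under 0.05 and DESeq2 called 0. Its highest gene, the axonal adhesion molecule Cntn2, was at 605 and 852 against 1144 and 1253 (log2 fold change 0.72, SE 0.25, edgeR adjusted p = 0.234). Of the 5 protein phosphatase 1 genes tested, 0 were called by edgeR or DESeq2 and 3 had an unadjusted p under 0.05, with a median of 0.50. Ppp1r14b, from the same inhibitor family as Ppp1r14c, was at 523 and 620 against 1109 and 716 (edgeR adjusted p = 0.284). Flna, the filamin that refilins bind, was at 88.4 and 76.2 against 72.2 and 95.9 (edgeR adjusted p = 0.972). Crebbp, which encodes CBP, was at 209 and 177 against 169 and 181, and all 5 tested genes of the CITED list had negative fold changes, with 0 called by edgeR or DESeq2 and 2 at an unadjusted p under 0.05. Hdac2, highest of the 3 HOPX partners, was at 264 and 287 against 377 and 256. In Pax6-higher cells 0 of 36 partner genes were called by edgeR or DESeq2, and 7 had an unadjusted p under 0.05, against the 9.82% of all genes given above.

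Stage markers in the same fit of Meis2-higher cells included 2 called genes. Dll1, the Notch ligand of newly committed neurons, fell from 42.8 and 30.2 CPM in the controls to 6.58 and 8.42 in the CKO libraries (log2 fold change -2.30, SE 0.32, edgeR adjusted p = 0.0332). Syt4, a synaptotagmin of maturing neurons, fell from 414 and 333 to 140 and 130 (log2 fold change -1.46, SE 0.22, edgeR adjusted p = 0.0368). In cells thinned to 2000 UMIs neither passed edgeR's threshold, with adjusted p of 0.116 for Dll1 and 0.237 for Syt4 and log2 fold changes of -1.87 and -1.07. Neither passed it with at most 5% mitochondrial UMIs (edgeR adjusted p = 0.107 for both) or without doublets (0.0642 and 0.0752), and Dll1 did not in cells of at least 4000 UMIs (0.059). Of the 13 tested genes of newborn neurons 11 had positive fold changes (median 0.50), with Dll1 as the exception that passed the test. Of the 13 of maturing neurons 10 had negative ones (median -0.22). Of the 8 granule lineage genes 7 had positive ones (median 0.52). There edgeR called 0, 4 had an unadjusted p under 0.05, where 14.7% of all genes did, and DESeq2 called 1, Barhl1, against 0.918% of all genes it tested. Pax6, which helped define the class, was at 110 and 130 CPM in the controls and at 180 and 205 in the CKO libraries (edgeR adjusted p = 0.198). The part of this in the levels of the 9 genes was not tested. All 6 cycling genes had positive fold changes, with a median of 1.25. None was called by edgeR. All had an unadjusted p under 0.05, where 14.7% of all genes did, and DESeq2 called 5, against 0.918% of all genes it tested. Top2a, the highest of them, was at 104 and 69.2 against 169 and 160 (edgeR adjusted p = 0.137). For all 6 both CKO libraries lay above both controls, where 22.0% of all genes did. The part of the cycling genes in the levels of the 9 genes was not tested.

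Detection from free RNA was gauged in cells of other types, over all kept cells and without thinning. In 65 cells with at least 3 UMIs of the GABAergic genes Gad1, Gad2, Slc32a1 and Pax2 (median depth 3447 to 3720.5 UMIs by library), Rflna was detected in 0, which allows a share of up to 4.62%. Hopx was detected in 1 (1.54%), and Evx1 and Evx1os in 3 each (4.62%). Before thinning, Meis2-higher cells held Rflna in 3.65% and 0.818% of control cells and 20.1% and 12.9% of CKO cells. The control shares of Rflna and Hopx were within the limits that all 65 cells allow, and the CKO shares were above them. By library the limits were wider, from 16 cells in CKO 1 and 12 in CKO 2. Wilson upper limits there were 19.4% and 24.2% for Rflna and 28.3% and 24.2% for Hopx. Only Rflna in CKO 1 was above the limit of its own library. Rflna in CKO 2 and Hopx in both (18.5% and 10.2% before thinning) were within it, so these few cells cannot tell free RNA apart. Lmo2 was found in 8 of the 65 (12.3%, Wilson interval 6.37 to 22.5%). In Meis2-higher cells it was in 4.64% and 4.74% in the controls, 17.8% in CKO 1 and 12.4% in CKO 2. Of its 23 UMIs in the GABAergic cells, 16 were in 2 cells of CKO 1, so these cells are no plain measure of free RNA for Lmo2. Cited2 (58.5%), Phlda1 (21.5%), Ppp1r14c (16.9%) and Lmcd1 (9.23%) were also present in these cells. In 18 cells with at least 20% haemoglobin UMIs, Lmo2, Rflna, Hopx, Lmcd1 and Ppp1r14c were in 0, which allows up to 16.7%. By library these cells were 4 in control 1, 11 in control 2, 3 in CKO 1 and 0 in CKO 2, so they give no measure for CKO 2. Evx1 was in 3 of the 18 (16.7%, Wilson interval 5.84 to 39.2%), 1 in control 1 and 2 in control 2. Evx1os was in 1, Phlda1 in 2 and Cited2 in 4. In Meis2-higher cells before thinning, Evx1 was in 12.8% and 12.4% in the controls, 36.1% in CKO 1 and 17.5% in CKO 2. Whether Cited2, Phlda1 and Evx1 in these cells came from the cells themselves, from free RNA or from doublets was not tested.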

How the data were processed

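The authors deposited 1 matrix of raw UMI counts per gene and cell barcode for each library, with no normalization, made with Cell Ranger 5.0.0 on build mm10 per the submitters' processing notes. Total counts per library were 14998150 to 33709450, and a higher count gives narrower intervals. The labels place the 4 libraries in 2 groups of 2. The genes and lists were chosen with earlier results of these data known. UMIs were summed per library and class of cell and fitted with edgeR 4.0.16 (TMM, filterByExpr, quasi-likelihood F test, two-sided, Benjamini-Hochberg adjustment over all genes tested, threshold 0.05, R 4.3.3). SE was taken as the size of the log2 fold change divided by the root of the F statistic. DESeq2 1.42.0 was an alternative. Levels of single genes are CPM with TMM scaling over the genes tested; sums of marker lists and levels in cells with equal counts are CPM without it. Cells were thinned without replacement (numpy 2.4.6, seed 11), and intervals used scipy 1.17.1. Named besides the 9 genes were called genes of fixed lists (up to 5 each), otherwise the gene of highest mean level, and the 12 and 6 genes at the ends of the pattern ranking, which needed at least 10 UMIs per library and left out sex-linked, mitochondrial and haemoglobin genes. One result of that ranking is not reported here. Doublets were kept and removed as an alternative, by a simulated-doublet score (0.8% of cells per 1000). Same-numbered libraries deviated from their group means with r = -0.22 in Meis2-higher and -0.16 in Pax6-higher cells across genes, and the labels do not say that a number marks a shared litter or day, so no pairing was used. On simulated data the fit recovered 96% of 200 genes changed by a log2 fold change of 2 among 11907 genes in Meis2-higher cells, with 13 false calls, and 95% among 14135 in Pax6-higher cells, with 9. The simulated counts were drawn from the control means with the same dispersion for every gene. Only genes above a minimum expected count were changed. Differences between libraries in sex and blood RNA were not simulated, so these rates need not hold for the real libraries. Other alternatives were filters on low counts, depth, mitochondrial share and class margin, and leaving out each library. The limits of background cells (20% haemoglobin, 3 UMIs) were set after seeing the data.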

Additional observations from a re-analysis of the deposited data

Results flagged for a closer look

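Lmcd1 had log2 fold changes of opposite sign in the 2 classes of cell. In Meis2-higher cells it was 0.89 (SE 0.27), with both CKO libraries above both controls, a position held by 22.0% of all genes tested there. In Pax6-higher cells it was -0.68 (SE 0.33, edgeR adjusted p = 0.510), with both CKO libraries below both controls. That position was held by 23.5% of all genes tested in Pax6-higher cells. The difference between the classes was not tested, and Lmcd1 was chosen from the first of them. The same gene overlapped between groups in Meis2-higher cells from 2000 to under 4000 UMIs.

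The 1728 cells with equal UMIs of Meis2 and Pax6, which entered no comparison, carried some of the 9 genes at higher levels in the CKO libraries. Rflna was at 1.64 and 3.56 CPM in the controls and at 15.4 and 14.2 in the CKO libraries, with a CKO mean of 14.8 from 12 UMIs in each library. Ppp1r14c was at 64.9 and 54.2 against 158 and 110, with a CKO mean of 134. Phlda1 was at 91.2 and 88.4 against 246 and 152, with a CKO mean of 199. For Evx1 (28.8 and 30.6 against 19.2 and 4.74) and Lmcd1 (46.8 and 21.4 against 14.1 and 20.1) both CKO libraries lay below both controls. For Lmo2, Hopx, Evx1os and Cited2 the groups overlapped. The share of all genes in either position was not determined in these cells. These cells were shallow, with library medians of 1615 to 1969.5 UMIs.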

How the results depend on the processing

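In Meis2-higher cells all 117 alternative log2 fold changes of the 9 genes were above 0 (0.22 to 4.64). In Pax6-higher cells Evx1os reversed, to 0.24 in cells of at least 4000 UMIs and to 0.28 without control 2, and lay between -1.11 and 0.28 when a library was left out. There Ppp1r14c passed the threshold without a filter on low counts (adjusted p = 0.00197), without CKO 2 (0.0267), with the crossed pairing (0.0277) and with DESeq2, and Hopx did without the filter (0.0364). Genes called in Meis2-higher cells were 25, and 179 with DESeq2, 559 without the filter, 39 in cells of at least 4000 UMIs, 1 at 5% mitochondrial UMIs or less, 11 without doublets, 72 with a class margin of 2 UMIs and 44 (without CKO 1) to 751 (without CKO 2) when a library was left out. In Pax6-higher cells they were 8, and 85, 348, 2, 3, 4 and 4 for those settings, 2 in cells thinned to 2000 UMIs and 2 (without CKO 1) to 123 (without CKO 2) when a library was left out. With the replicate block 58 and 0 genes were called, with no adjusted p of the 9 genes in Pax6-higher cells under 0.05. A crossed pairing, added after seeing the data, gave 763 and 207. The difference in Meis2-higher cells with 2 or more of the genes, 30.1 percentage points, was 41.0 at 3000 UMIs, 18.1 without Cited2 and Phlda1, 15.3 in cells from 2000 to under 4000 UMIs (added after seeing the data) and 21.6 to 38.5 when a library was left out. In Pax6-higher cells it was 7.11 to 17.7 when a library was left out. Pairs above independence in all 4 libraries were 11 at 2000 and 12 at 4000 UMIs. The causes were not tested, except that fewer cells entered the stricter settings. With 2 libraries a group and from 222 cells a library at 2000 UMIs, small differences were not detectable.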
